A study of Mus musculus with 2 samples.

Results

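Genes that repair DNA double-strand breaks and DNA crosslinks were examined on 2 Affymetrix arrays of mouse bone marrow cells. The members were 45 named genes, taken with every probe set that the platform annotation ties to exactly 1 of them under its current or former name. In the table, 42 of the 45 had such a probe set, with 93 probe sets in all, among 18193 genes measured on the arrays. Xrcc2, Rbbp8 and Dclre1c were not analysed here. The cells came from wild-type C57BL6J mice and belonged to a stem-cell-rich marrow fraction, sorted as lacking lineage antigens and Flt3 and carrying Sca-1 with high c-Kit (LSK Flt3- cells). They were transduced with Satb1, which encodes a chromatin organiser that binds AT-rich DNA, or with GFP as the control. There was 1 array labelled Satb1 and 1 array labelled GFP, so no difference has a replicate check and no p-value is given. The sources used here do not give the vector, the time after transduction, the age of the mice or the number of mice or cultures behind each array.

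A break through both DNA strands is repaired mainly by homologous recombination or by non-homologous end joining. In homologous recombination the ends are cut back to single strands, which BRCA2 and its partners prepare so that the intact sister chromatid can be copied, and the route is therefore tied to S and G2 phase. In end joining, the Ku proteins hold the ends and a ligase seals them in any phase of the cycle. The Fanconi anaemia pathway unhooks crosslinks between the strands and hands the resulting break to recombination. Inherited loss of its genes causes bone marrow failure, and blood stem cells depend on it.

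The values were MAS5 intensities, the summary on a linear scale that the Affymetrix algorithm computes for each probe set. Each gene was represented by its probe set of highest mean log2 intensity, and intensities under 61.7, the median of all values, were raised to that floor before a difference was taken. A difference is the log2 intensity on the array labelled Satb1 minus that on the array labelled GFP. Because probe sets differ in how strongly they bind, an intensity orders a gene between the arrays and not against other genes. For Satb1 itself, none of the 5 probe sets was raised on the array that carries its name, where the brightest read 909 against 1116 and another 165 against 288. All directions therefore rest on the labels of the arrays. All 8 measured stem and progenitor markers lay above the floor, 1 of them 1.5-fold higher and 1 lower by that fold. Kit read 3388 against 3293 and Flt3, whose surface protein the sort excluded, 1334 against 1390, while Slamf1 was 2.43-fold higher on the array labelled Satb1 and Hlf 1.76-fold lower. Of 7 T lineage markers 4 lay under the floor on both arrays (Cd3e, Cd3d, Cd3g and Cd4), and of 7 B lineage markers 4 did (Cd79a, Ms4a1, Pax5 and Ebf1), whereas Cd8a, Cd5, Thy1, Cd79b and Vpreb1 read between 67.8 and 412 and Igll1 lay above it on 1 array alone (126 against 52.6). On the array labelled Satb1 Cd8a was 1.66-fold higher and Igll1 at least 2.05-fold higher, and 0 markers of either list were 1.5-fold lower. Of 13 measured granulocyte and monocyte markers, 7 were at least 1.5-fold higher on the array labelled Satb1 and 0 lower, with summed intensities of 68368 against 60559. Of 8 mast cell and basophil markers 4 were lower by that fold and 1 higher, with sums of 10951 against 16721. The 6 megakaryocyte markers above the floor were all higher in the values as deposited, 2 of them by 1.5-fold, with sums of 30892 against 26686 over the 7 measured. Of 6 erythroid markers 4 lay under the floor on both arrays and 1, Klf1, was 1.59-fold higher, with sums of 370.3 against 307.8. In RNA of a mixed cell pool, fewer cells of a type and less RNA per cell cannot be told apart, and the part of these marker differences in the repair values was not tested.

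Nearly all the repair genes lay above the floor and, like most genes on these arrays, differed little between the arrays. Of the 42 measured members, 40 lay above the floor on both arrays (95.2%, against 56.7% of all 18193 genes), Polq did so on the array labelled Satb1 alone, and Bard1 lay just under it on both. None of the 41 members above the floor on at least 1 array was 2-fold higher or 2-fold lower, where 0.272% and 0.86% of all 11048 such genes were. At 1.5-fold, 0 members were higher, against 1.75% of all genes, and 1 was lower, Fancm, against 3.91%. With so few members, counts of 0 or 1 lie near these shares. The members' differences ran from -0.65 for Fancm to 0.29 for Fancl, with a median of -0.08 and an SD over genes of 0.19, beside a median of -0.02 and an SD of 0.29 over all 10316 genes above the floor on both arrays. Each member was also set against the 2000 genes nearest to it in intensity, because dim genes scatter more. All 40 members lay inside the middle 95% of those genes, and 0 lay outside it, where 2.37% of all genes lay above their own range and 2.4% below it.

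The small differences leaned downward. Of the 40 members, 32 were lower by some amount on the array labelled Satb1 (80%, with Mdc1 counted at 816.9 against 817.0) and 8 were higher, whereas 54.3% of all genes were lower. The share of members that were lower changed with the scaling of the arrays and with the probe set rule. After quantile normalization 24 of the 40 were lower (60%, against 49.9% of all genes), and after the arrays were centred on the median difference 26 were (65.0%, against 49.2%). When all probe sets of a gene were averaged it was also 26 (65.0%, against 54.4%). Under the other changes of the floor or probe set rule, 70.3% to 80% of members were lower, against 50.3% to 55% of all genes. The members' median was -0.06 after quantile normalization and after centring, beside 0.0003 and 0.0043 over all genes.

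**Figure D1:**
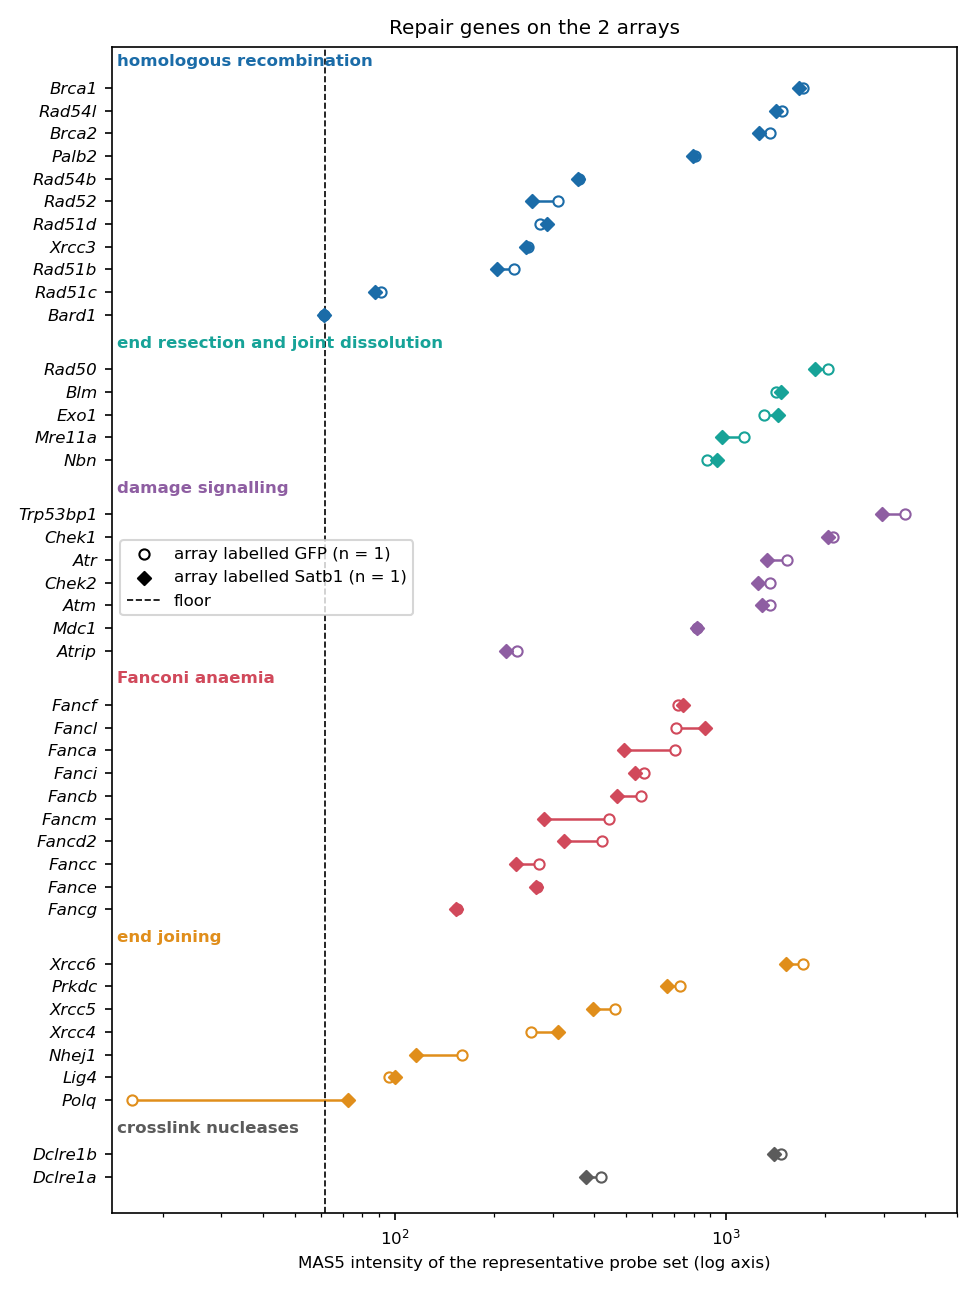
MAS5 intensity (log axis) of the representative probe set of each of the 42 measured repair genes on the array labelled GFP (open circles) and the array labelled Satb1 (filled diamonds), grouped by role, with the floor of 61.7 as a dashed line and 1 array per group. The longest gaps above the floor are those of Fancm and Fanca, and the Polq line starts at 16.1, far under the floor.

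**Figure D2:**
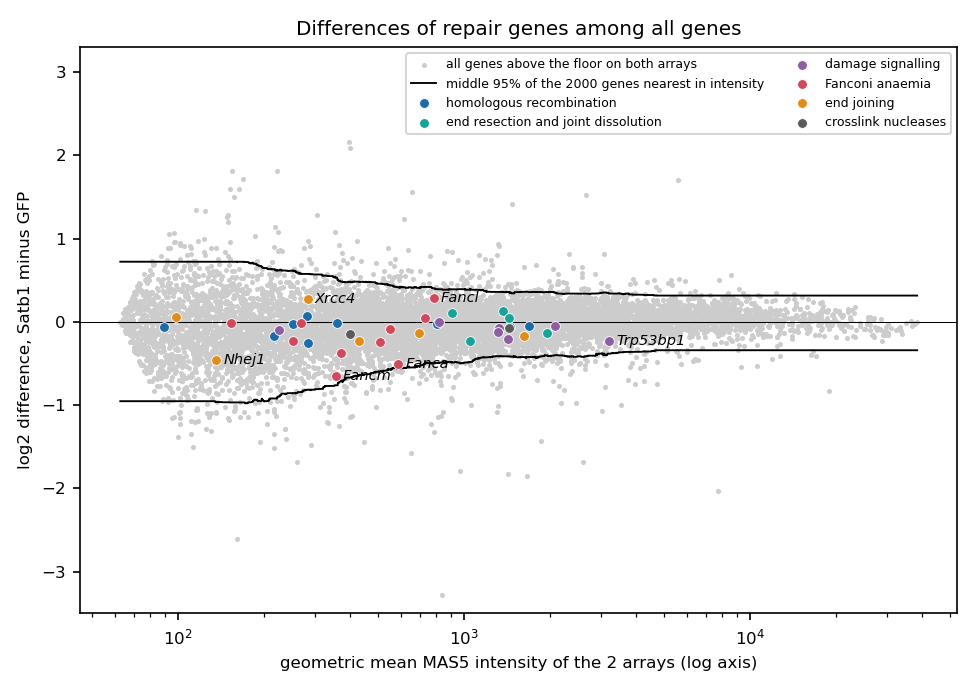
Log2 difference (Satb1 minus GFP) against the geometric mean intensity (log axis) for the 10316 genes above the floor on both arrays in grey and the 40 repair genes among them in colour by role. Black lines bound the middle 95% of the 2000 genes nearest in intensity; all 40 coloured points lie between them, with Fancm at -0.65 and Fanca at -0.51 closest to the lower line.

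The homologous recombination genes differed little. Among the 10 of 11 measured members above the floor on both arrays, differences ran from -0.26 to 0.07 with a median of -0.05, and 9 were lower by some amount and 1 higher. After quantile normalization 5 were lower and 5 higher, with a median of -0.02. Brca1, whose protein starts recombination at breaks and stalled forks, read 1664 on the array labelled Satb1 and 1718 on the array labelled GFP, and its other 3 probe sets differed by no more than 0.09. Brca2, whose protein acts on the single-stranded ends, read 1265 against 1362, and Palb2, which joins BRCA1 to BRCA2, read 796 against 807. These core genes were thus within 0.11 log2 units between the arrays. Bard1, the obligate partner of BRCA1, had a single probe set, which read 61.3 against 61.1, so it gives no difference above the floor.

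Rad51b, Rad51c, Rad51d and Xrcc3 encode related proteins that form small complexes and assist strand exchange. Rad51b read 203 against 229, Rad51c 87.2 against 91.0 and Xrcc3 249.5 against 253. Rad51d was the only recombination gene that was higher, at 288 against 275, and all 3 of its probe sets above the floor were higher by at most 0.11. Rad54l and Rad54b encode motor proteins that remodel DNA during strand exchange. Rad54l read 1421 against 1481 and Rad54b 358 against 360. The 3 Rad54l probe sets bright enough on both arrays were all lower, by up to 0.23, and a dim probe set, at 54.8 against 103.6, was at least 1.68-fold lower.

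Rad52, which anneals single strands, gave different sizes by probe set. Its representative probe set read 260 against 311, a difference of -0.26. The other read 184 against 327, a difference of -0.83, or 1.78-fold lower. Both were lower, and the SD over the pair was 0.41, beside a within-gene SD of 0.28 over all probe sets with intensities of 200 to 500. Rad52 was the second member at least 1.5-fold lower when genes were represented by the probe set brightest on the array labelled GFP, or without probe sets shared by several transcripts.

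The genes that cut back DNA ends and dissolve recombination joints showed no common direction. Of the 5 measured, 3 were higher and 2 lower, and their median difference was 0.05. Exo1, an exonuclease that makes long single-stranded tails, read 1435 against 1306, and all 3 of its probe sets were higher, by 0.10 to 0.25. Blm, the Bloom syndrome helicase, read 1466 against 1415. Of the complex that first recognises the break, Nbn was higher at 944 against 877, while the nuclease gene Mre11a was lower at 972 against 1135 and Rad50 lower at 1858 against 2042. By their representative probe sets the 3 subunits of that complex thus differed in sign. Their differences, from -0.22 to 0.11, were small beside a within-gene SD of 0.19 at intensities of 500 to 2000. A dim second Mre11a probe set was higher, at 82.3 against 66.6.

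By their representative probe sets all 7 damage signalling genes were lower or level, where 54.3% of all genes were lower. Their median was -0.10, with a range from -0.23 to 0. After quantile normalization 5 were lower and 2 higher, and with the mean over probe sets 6 were lower and 1 higher. The kinase gene Atm, which answers double-strand breaks, read 1292 against 1359, and a second probe set read 922 against 921. Atr, the kinase that answers single-stranded DNA at stalled forks, read 1330 against 1534, and all 3 of its probe sets were lower, by 0.08 to 0.21. Its partner Atrip read 218 against 234. Of the effector kinase genes, Chek1 was close to level by its bright probe sets. Chek1 read 2041 against 2109 and, by a second probe set, 1155 against 1118, but a dimmer one read 417 against 275, 1.52-fold higher. Chek2 read 1256 against 1366, a difference of -0.12. Mdc1, the scaffold on damaged chromatin, read 817 on both arrays to 3 digits.

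Trp53bp1 encodes 53BP1, which shields DNA ends from resection and so favours end joining. Its brightest probe set read 2969 against 3490, a difference of -0.23. On both arrays 6 of its probe sets were above the floor, more than any other member, and 5 of them were lower. The others read 441 against 598, 101 against 156, 106 against 128, 70.6 against 127 and, in the higher one, 73.4 against 68.7. The mean over the 6 was -0.39 ± 0.33 (SD over probe sets of the same 2 arrays, not over samples). The within-gene SD over all genes was 0.13 at intensities above 2000, where the brightest of these lies, and 0.36 under 200, where 4 of the others lie.

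Among the 6 groups of members, the Fanconi anaemia genes spread most widely, about as widely as all genes (SD over genes 0.28, against 0.29). The SD of the end joining members was 0.25. All 10 were above the floor on both arrays, 8 lower and 2 higher, with a median of -0.16 and an SD over genes of 0.28. After quantile normalization, after centring and with the mean over probe sets, 6 were lower and 4 higher. Fancm, the translocase that anchors the pathway on DNA, read 283 against 445 and was 1.57-fold lower, and a dim second probe set read 50.5 against 81.8. After quantile normalization, or with the mean over its probe sets, Fancm was no longer 1.5-fold apart. Fanca, a scaffold of the core complex, read 494 against 702, a difference of -0.51. Its other probe set was under the floor on both arrays.

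Of the remaining core complex genes, Fancb read 469 against 554, with its second probe set also lower, at 155 against 193. Fancc read 233 against 274, but its other probe sets were higher, at 149 against 117 and 92.9 against 90.6. Fance (267 against 270), Fancf (743 against 720) and Fancg (153 against 154) were level by their brightest probe sets. The second probe sets of Fance and Fancg were higher by 0.24 and 0.30, and that of Fancf was lower by 0.28. Fancl, the ubiquitin ligase subunit of the core complex, had the highest difference of any member above the floor on both arrays, at 865 against 706, or 0.29. The ligase acts on FANCI and FANCD2, which clamp onto DNA once modified. Fancd2 read 325 against 422 by its brightest probe set and 288 against 289 by the next, and Fanci read 532 against 566. Members of the core complex therefore lay on both sides of zero, and of the 6 Fanconi genes with several probe sets above the floor, Fancc, Fance, Fancf and Fancg had them on both sides.

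End joining genes gave a median of -0.15 over the 6 above the floor on both arrays, 4 lower and 2 higher. The Ku subunit genes were both lower, Xrcc5 at 397 against 464 and Xrcc6 at 1522 against 1716, and so was Prkdc, the kinase that Ku recruits, at 665 against 729. The ligation genes differed in sign. Xrcc4, the scaffold of the ligase, was higher at 312 against 258, and its second probe set was higher too, at 252 against 181. Lig4, the ligase itself, read 101 against 96.5, whereas Nhej1, which encodes the stimulating factor XLF, was lower at 116 against 159, a difference of -0.46. Polq, the polymerase of microhomology-mediated joining, read 72.2 against 16.1 by its only probe set and was at least 1.17-fold higher. The within-gene SD was 0.36 for probe sets under 200 that exceeded the floor on both arrays, which leaves Polq out. The Polq reading on the array labelled GFP counts only as under the floor.

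The crosslink nuclease genes were both slightly lower by their representative probe sets. Dclre1a, which encodes SNM1A, read 380 against 419. Dclre1b, which encodes Apollo, also active at telomeres, read 1396 against 1467, and its second probe set was higher, at 308 against 286.

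Set side by side, recombination, Fanconi and end joining genes had median differences of -0.05, -0.16 and -0.15, and their ranges of -0.26 to 0.07, -0.65 to 0.29 and -0.46 to 0.27 overlapped. The median intensity on the array labelled GFP was 335 for recombination, 499.7 for Fanconi and 361 for end joining genes, and on the array labelled Satb1 323, 397 and 355. After quantile normalization the 3 median differences were -0.02, -0.09 and -0.13. The intensity medians mix probe sets of unlike binding and are given without an order. With 1 array per group the group differences were not tested.

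Counted by probe set, the members gave 75 of 93 above the floor on at least 1 array. Of these, 5 were at least 1.5-fold lower (6.67%, against 4.72% of all 20173 such probe sets with a single gene) and 1 was higher (1.33%, against 2.47%). The 5 belonged to 4 genes, Trp53bp1 with 2 and Rad52, Rad54l and Fancm with 1 each, and the higher one to Chek1. Of 19 members with several such probe sets on both arrays, 8 had all of them on the same side of zero (42.1%, against 47.8% of 4840 such genes). They were Atr, Fancb, Fancd2, Rad52 and Rad54l, lower, and Exo1, Rad51d and Xrcc4, higher. The other 11 members had probe sets of both signs.

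**Figure D3:**
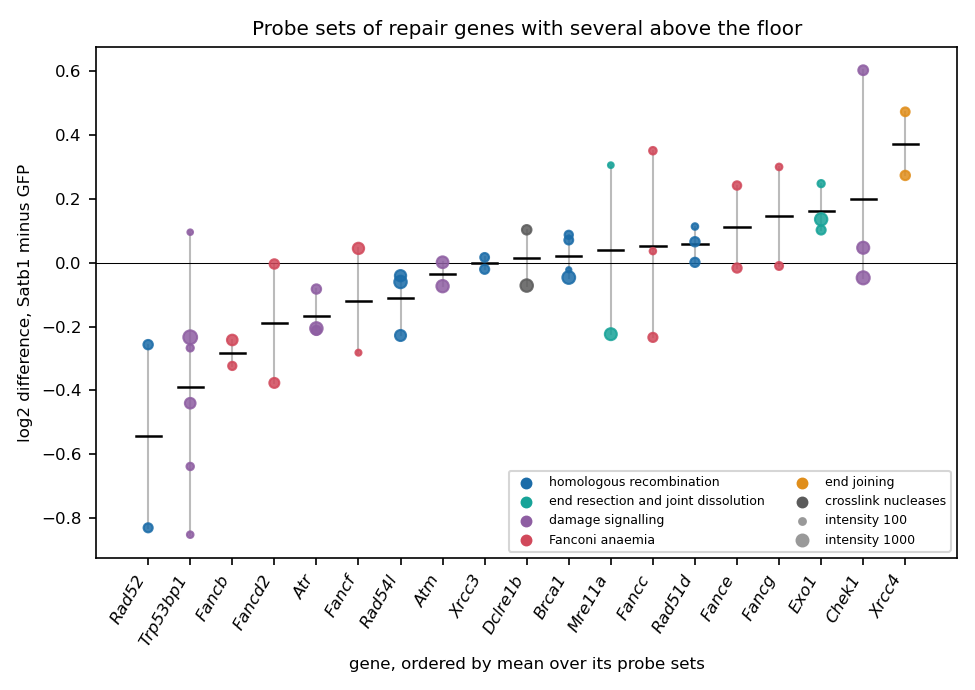
Log2 difference (Satb1 minus GFP) of every probe set whose intensity exceeded the floor on each array, for the 19 repair genes with several such probe sets, ordered by the mean over probe sets (black bar); dots are coloured by role and sized by intensity, and grey lines span the range. Means run from -0.54 for Rad52 to 0.37 for Xrcc4, and 11 genes have dots on both sides of zero.

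Further genes of the same pathways gave the wider setting. Of 77 listed, 72 were measured and 71 were above the floor on both arrays, with 34 higher, 37 lower and a median of -0.02, the same as over all genes. At 1.5-fold 0 of the 71 were higher and 2 lower, where 1.75% and 3.91% of all genes above the floor on at least 1 array were. The other recombination and resection genes were evenly split, 12 higher and 12 lower, with a median of 0.01. The largest differences were those of Eme2, a partner of a junction nuclease, at 213 against 270, and of the helicase gene Recql5 at 214 against 270.

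Of the 15 other Fanconi and crosslink genes 13 were lower and 2 higher, with a median of -0.09, where 54.3% of all genes were lower. Among the Fanconi members 8 of 10 were lower, and 6 of 10 after quantile normalization. Wdr48, the activating partner of the deubiquitinase that strips FANCD2, was 1.71-fold lower, at 1018 against 1741, by its brightest probe set. This probe set carries the suffix of designs that may cross-hybridise, and the 2 Wdr48 probe sets next in brightness were higher, at 778 against 741 and 485 against 372. Of the 22 other damage signalling genes 17 were higher and 5 lower, with a median of 0.09, on the other side of zero from the signalling members. Cdc25a, the phosphatase that checkpoint kinases restrain, read 2338 against 1732, and Rad9a, a subunit of the checkpoint clamp, 476 against 623. Of the 10 other end joining genes above the floor, 7 were lower and 3 higher, with a median of -0.08. Dntt, the terminal transferase that adds bases at antigen receptor joints, was 2.43-fold lower at 80.1 against 195, and another probe set read 59.2 against 180. The brighter of these carries the same suffix as the brightest Wdr48 probe set, and a further Dntt probe set lay under the floor on both arrays.

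Proliferation genes were compared because many recombination and Fanconi genes are transcribed mainly in cycling cells. Of 19 measured, 15 were higher by some amount and 4 lower, with a median of 0.11 and a range from -0.08 to 0.25, and 0 were 1.5-fold apart. The largest were those of Ccne1, the cyclin of S phase entry, at 694 against 582, and of the mitotic kinase gene Aurka at 2221 against 1862. The repair members leaned the other way, with a median of -0.08, and the part of the cell cycle in their values was not tested.

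**Figure D4:**
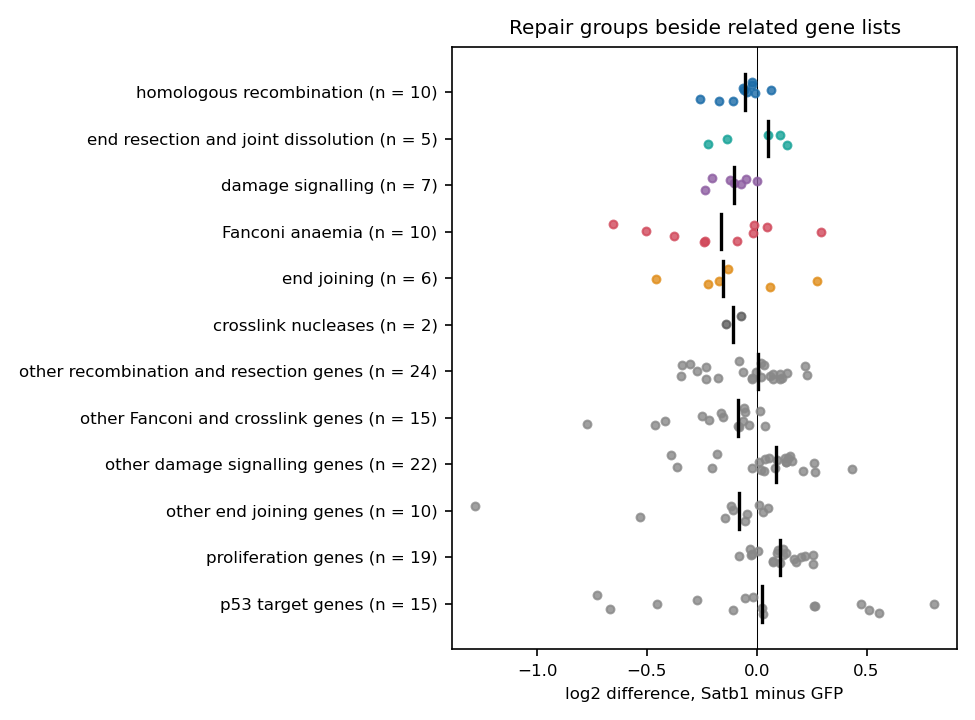
Log2 difference (Satb1 minus GFP) of each gene above the floor on both arrays, for the 6 groups of repair members (coloured) and 6 related lists (grey), with black bars at the medians; the vertical scatter within a row carries no value. Medians run from -0.16 for the Fanconi anaemia members to 0.11 for the proliferation genes, and the dot farthest to the left is Dntt.

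The promoters of the members that differed most in each direction are shown to set them side by side. RefSeq promoter windows of 300 bases, from 250 before to 50 after the annotated start, were at hand for 35 of the 42 measured members. The windows below belong to Fancm and Fanca, the lowest members above the floor on both arrays, and to Fancl and Xrcc4, the highest. Each reads 5′ to 3′ along the gene. Capitals mark any match, on either strand, to the CCAAT box (CCAAT), the ETS site (CCGGAAG), the CHR element (TTTGAA) or the 4 spellings of the E2F site given further on.

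Fancm, GRCm38.p6 chr12:65075353-65075652, plus strand: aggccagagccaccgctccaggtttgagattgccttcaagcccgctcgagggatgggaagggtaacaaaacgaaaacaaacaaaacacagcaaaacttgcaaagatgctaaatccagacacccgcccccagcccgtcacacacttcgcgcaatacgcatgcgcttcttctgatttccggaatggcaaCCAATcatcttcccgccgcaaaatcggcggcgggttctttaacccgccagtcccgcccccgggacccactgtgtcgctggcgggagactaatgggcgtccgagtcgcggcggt

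Fanca, GRCm38.p6 chr8:123318527-123318826, minus strand: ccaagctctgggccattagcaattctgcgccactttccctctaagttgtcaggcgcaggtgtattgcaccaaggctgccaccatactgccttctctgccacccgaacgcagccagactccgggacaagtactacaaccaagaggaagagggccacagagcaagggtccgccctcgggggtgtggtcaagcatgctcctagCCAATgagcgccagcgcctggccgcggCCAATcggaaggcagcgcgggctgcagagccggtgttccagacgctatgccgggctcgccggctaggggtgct

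Fancl, GRCm38.p6 chr11:26386834-26387133, plus strand: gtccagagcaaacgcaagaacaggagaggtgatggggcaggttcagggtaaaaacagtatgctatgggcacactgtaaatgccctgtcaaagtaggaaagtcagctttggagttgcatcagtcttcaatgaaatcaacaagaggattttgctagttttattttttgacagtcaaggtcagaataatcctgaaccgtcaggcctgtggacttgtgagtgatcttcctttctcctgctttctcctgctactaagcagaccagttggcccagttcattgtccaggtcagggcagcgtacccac

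Xrcc4, GRCm38.p6 chr13:90089559-90089858, minus strand: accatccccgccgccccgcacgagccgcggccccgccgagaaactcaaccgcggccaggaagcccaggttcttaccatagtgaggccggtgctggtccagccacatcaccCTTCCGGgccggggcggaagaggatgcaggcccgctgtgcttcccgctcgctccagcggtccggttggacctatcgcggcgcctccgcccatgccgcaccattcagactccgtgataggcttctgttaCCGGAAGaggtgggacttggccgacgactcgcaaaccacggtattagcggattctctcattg

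The lower pair both held the CCAAT letters close to the start, 1 match in Fancm at 63 to 59 bases before it and 2 in Fanca at 50 to 46 and 23 to 19 bases before it. Xrcc4 held 2 matches to the ETS letters, at 140 to 134 and 12 to 6 bases before the start, and Fancl held none of the 4 motifs. Their GC contents were 58.0% for Fancm, 63.0% for Fanca, 47.0% for Fancl and 65.7% for Xrcc4. The CCAAT letters were found in 53.8% of the 39 member windows and in 37.4% of all 32851 promoter windows (38.2% of those of protein-coding genes). Among the 9 windows of the Fanconi group, to which Fancm, Fanca and Fancl belong, the share was 66.7%. The ETS letters were in 23.1% of the member windows against 8.86% of all, and the CHR letters in 10.3% against 17.9%. Among protein-coding windows the shares were 11.6% for ETS and 16% for CHR. Among the 7 windows of the end joining group, to which Xrcc4 belongs, the ETS share was 57.1%. A match describes the letters of the window and is not evidence of a bound site.

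E2F sites were searched because E2F factors drive S phase genes. The 4 spellings TTTCCCGC, TTTCGCGC, TTTGCCGC and TTTGGCGC were sought on both strands, and 0 of the matches overlapped a match to another of the motifs. They were found in 8 of the 39 member windows (20.5%), against 2.26% of all windows and 2.85% of those of protein-coding genes. The member windows were also richer in GC, with a median of 59.7% against 52.7% and 56.3%, and the part of base composition in these shares was not tested. The 8 windows belonged to 7 genes, and each match is shown with 10 bases on either side, the E2F letters in capitals.

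Bard1, GRCm38.p6 chr1:71103164-71103191, minus strand: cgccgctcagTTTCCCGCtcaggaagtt
Brca2, GRCm38.p6 chr5:150522443-150522470, plus strand: ttaggccacaGCGGGAAAcagacacaca
Chek2, GRCm38.p6 chr5:110839821-110839848, plus strand: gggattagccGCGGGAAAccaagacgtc
Fancg, GRCm38.p6 chr4:43010336-43010363, minus strand: ttcttttcagTTTCCCGCggaaccgtct
Mdc1, GRCm38.p6 chr17:35841472-35841499, plus strand: cttcagcctgTTTCCCGCcggtagccgc
Rad51c, GRCm38.p6 chr11:87404478-87404505, minus strand: tttccagcgcTTTCGCGCctcttgctct
Rad51c, GRCm38.p6 chr11:87404942-87404969, minus strand: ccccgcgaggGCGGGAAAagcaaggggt
Xrcc6, GRCm38.p6 chr15:82016313-82016340, plus strand: gggggtggaaGCGGGAAAtgcgagtggg

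The spelling TTTCCCGC, or its reverse complement, made up all but 1 of the matches, and the exception was in Rad51c, which has 2 annotated starts. The matches began between 209 bases before the start, in Bard1, and 12 bases after it, in Rad51c. Of the genes with these letters, Brca2, Chek2 and Xrcc6 were lower by 0.11 to 0.17 and Rad51c by 0.06, while Fancg and Mdc1 were level. The 6 of them above the floor on both arrays had a median difference of -0.08, beside -0.09 for the 27 members whose windows lacked the letters.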

How the data were processed

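Gene expression was measured on 2 arrays, 1 per group. Per the submitters' processing notes, the authors deposited MAS5 intensities; the sources used here do not give its version, scaling target or genome build. The mean without the lowest and highest tails was 497 on each array. Arrays carry no read depth, and precision is limited by their number. Of 45037 probe sets, 34945 had 1 gene symbol in the platform annotation, 932 several and 9160 none; only the first were used, with symbols updated through Entrez IDs to GRCm38.p6. Differences were taken on the log2 scale of the deposited intensities with Python 3.11.15, numpy 2.4.6 and pandas 2.3.3, with no further normalization. Thresholds were 2-fold and 1.5-fold after the floor at the median of all values. All 42 measured members are named; genes of the other pathway, proliferation and p53 target lists are named where 1.5-fold apart, otherwise the 2 with the largest differences. Cell type markers are given by counts, with examples. The members and lists were chosen with earlier results of these data known. The scripts were tested on simulated data. Alternatives changed the floor, the scaling and the probe set rule. Promoters are RefSeq's, GRCm38.p6.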

Additional observations from a re-analysis of the deposited data

How the results depend on the processing

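No paired analysis was possible because each group had 1 array, and no array could be left out. The 8 alternatives kept the sign of the median difference of all members, which lay between -0.08 and -0.06, and of each of the 5 groups recomputed for it (the crosslink nucleases are 2 genes). Group medians moved in size: the Fanconi median ran from -0.16 to -0.09, that of recombination from -0.05 to -0.02, of end joining from -0.15 to -0.13 and of damage signalling from -0.10 to -0.07. A floor at the 75th percentile left 23 members above it on both arrays and 0 that were 1.5-fold lower. With the floor at the 25th percentile or with no floor, 1 member, Polq, was both 1.5-fold and 2-fold higher, from a reading of 16.1 on the array labelled GFP. The count of members 1.5-fold lower was 0 after quantile normalization and 0 with the mean over probe sets. It was 2, Fancm and Rad52, without probe sets shared by transcripts and 2 with the probe set brightest on the array labelled GFP. Of 309 recomputed differences of single members, 301 moved by less than the within-gene SD of 0.27. The others were those of Rad52, Fancm and Polq and 2 that changed sign, Mre11a (0.31 without shared probe sets) and Fancc (0.05 with the mean over probe sets). That SD is larger than most members' own differences, so a difference could change sign and still count among the 301. Several did, such as Rad51c (0.11) and Fancg (0.14) after quantile normalization and Chek1 (0.20) with the mean over probe sets. A lower floor could not move members already above the main floor, nor could averaging move members with 1 probe set. The cause of these changes was not tested beyond the probe sets and intensities given. Signal near the floor limits Bard1, Polq, Rad51c and Lig4, and no difference has an error between samples.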

Other observations

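Targets of the p53 protein, which damage signalling activates, gave a mixed picture. Of 19 measured, 15 were above the floor on both arrays, 8 higher and 7 lower, with a median log2 difference of 0.02. Perp, a membrane protein gene of cell death and adhesion, was 1.75-fold higher at 1720 on the array labelled Satb1 against 983. Zmat3, a zinc finger RNA-binding protein gene, was 1.65-fold lower at 237 against 393, and Phlda3, an inhibitor of AKT signalling, 1.59-fold lower at 197 against 312. Each of these rests on 1 probe set. The SD of the differences over the 15 genes was 0.45, beside 0.29 over all genes, and was not tested.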
